A study of Mus musculus with 4 samples.

Results

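The genes described here encode maturation promoting factor (MPF) and the enzymes that switch it on and off. They were taken by name and not by a rule on their values, though with earlier results of these data known. All 10 of the 10 listed genes (*Cdk1*, *Ccnb1*, *Ccnb2*, *Ccnb3*, *Wee1*, *Wee2*, *Pkmyt1*, *Cdc25a*, *Cdc25b* and *Cdc25c*) had an entry among the 21957 genes of the table. Oocytes came from female B6D2F1 (C57BL/6 x DBA) hybrid mice of 6-8 weeks that had been primed with PMSG, and were freed of cumulus cells with hyaluronidase. GV oocytes, whose germinal vesicle (the oocyte nucleus) is intact, were taken at 0 h, and the other 3 conditions after 12 h of culture in M16 medium: MII oocytes without drug, and TubA-10 and TubA-20 oocytes with 10 or 20 μM tubastatin A (TubA), an inhibitor made against the deacetylase HDAC6. The titles and the methods of the study give these doses, while the treatment field of the sample records has 20 μM where the title has 10 and 11 μM where the title has 20. Each condition was 1 library from a pool of 100 oocytes, so there is no spread between replicates, no difference below has a test, and a value stands for its library alone. The study elsewhere writes of single oocytes. In a pool, less of a transcript in each oocyte and fewer oocytes that hold it cannot be told apart. MII oocytes were kept only if they had extruded a polar body, no such choice is stated for the treated pools, and TubA was dissolved in DMSO without a statement that the controls received it. Drug, meiotic stage and solvent therefore cannot be told apart.

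MPF is a complex of the kinase CDK1 and a B-type cyclin, and its activity drives germinal vesicle breakdown and entry into meiotic metaphase. In the arrested GV oocyte CDK1 is held inactive by inhibitory phosphates that WEE1, WEE2 (also called WEE1B, the oocyte form) and the membrane-bound kinase MYT1 (*Pkmyt1*) place on it, and CDC25 phosphatases remove them at resumption. The growing oocyte stores many of these mRNAs with short poly(A) tails. Lengthening or shortening of the tail at maturation, directed in part by cytoplasmic polyadenylation elements (CPEs) in the 3′ UTR, sets when they are translated and how long they last.

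In GRCm38 coordinates *Cdk1* lies on the minus strand of chromosome 10 (69335146 to 69352938). The B cyclin genes are also on minus strands, *Ccnb1* on chromosome 13 (100778650 to 100786570), *Ccnb2* on chromosome 9 (70407692 to 70421547) and *Ccnb3* on chromosome X (6979652 to 7041619). On plus strands are *Wee1* on chromosome 7 (110122046 to 110143286), *Wee2* on chromosome 6 (40439088 to 40466813) and *Pkmyt1* on chromosome 17 (23726336 to 23736735), as well as *Cdc25a* on chromosome 9 (109875579 to 109893895) and *Cdc25b* on chromosome 2 (131186949 to 131198497). *Pkmyt1* overlaps *Paqr4* on the opposite strand, which was at 9.18 to 12.9 FPKM. The study counted fragments by strand. Processed pseudogenes of *Ccnb1* and *Ccnb2* are annotated in the mouse genome and have no entry in the table used here, so a part of the cyclin values that comes from shared reads cannot be separated.

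The last 200 bases of the 3′ UTR annotated in GENCODE M21 were searched on the sense strand for the CPE letters TTTTAT and TTTTAAT, and 9 of the 10 genes have a 3′ UTR of that length (that of *Pkmyt1* has 124 bases). CPE letters were found in 4 of the 9: *Ccnb1*, *Ccnb2*, *Ccnb3* and *Wee2*. *Cdk1*, *Wee1*, *Cdc25a*, *Cdc25b* and *Cdc25c* held neither form. Of all 16994 genes with a 3′ UTR of at least 200 bases, 28.4% hold either form. The sites are shown so that genes with a CPE can be set beside *Cdk1* and *Wee1*. The Cdc25 genes, which also held neither form, are not shown. The capitals mark the CPE, or in *Cdk1* and *Wee1* the polyadenylation signal (AATAAA or ATTAAA) nearest to the transcript end.
*Ccnb1* (chr13:100778777-100778803, minus): tcatttgctgTTTTAATttatacatct
*Ccnb2* (chr9:70407862-70407887, minus): cctgtatgtaTTTTATtctagtttac
*Ccnb3* (chrX:6979704-6979729, minus): ttgaaattacTTTTATgaaagaagag
*Wee2*, first site (chr6:40466758-40466784, plus): ttttaacataTTTTAATccagatcatt
*Wee2*, last site (chr6:40466786-40466811, plus): taaataaagaTTTTATcttatccaaa
*Cdk1* (chr10:69335158-69335183, minus): aatggcacggAATAAAaggattattc
*Wee1* (chr7:110143249-110143274, plus): tgtctggtgtATTAAAagtcattccg

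The sites of *Wee2* stand closest to the annotated transcript end, 12 and 39 bases before it, and a Pumilio element (TGTANATA) overlaps its AATAAA signal. A Pumilio element is present in 7.34% of all 3′ UTR ends of this length and, among the 9 genes, in *Wee2* and *Cdc25c*. The *Ccnb1* site lies 137 bases before the end, and the *Ccnb2* site lies 180 bases before the end. The second coding transcript of *Cdk1* has a 3′ UTR of 174 bases in place of 3352, and neither CPE form occurs there. A match of letters is a description of the sequence and not of binding.

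Values are FPKM (fragments scaled to the length of the transcript and the size of the library), and a change is the log2 ratio of FPKM + 1, which understates changes of low genes. The libraries summed to between 568331 and 627340 FPKM. From the lowest values of single-transcript genes, the depth was estimated as 14300000 to 25700000 fragments, in the order TubA-20, GV, TubA-10 and MII. The read totals given by the study are lowest in GV, followed by TubA-20, TubA-10 and MII. The reason for this difference in order was not tested. All 10 oocyte marker genes, such as *Zp3* and *Gdf9*, were above 1 FPKM in every library. The lowest of them, *Figla*, ranged from 90.5 FPKM in GV to 12.4 in TubA-20. The 10 cumulus and granulosa cell markers together reached 10.2 to 16.9 FPKM, and *Foxl2* was at 0 throughout. Of the 10, 2 were above 1 FPKM in GV, MII and TubA-10, and 4 in TubA-20. *Cyp19a1* ran from 6.14 FPKM in GV to 10.3 in TubA-20, and *Kitl* from 0.952 in GV to 2.75 in MII. *Inha* was at 7.5 FPKM in GV and at 0.239 to 0.314 in the libraries cultured for 12 h. Whether RNA of somatic cells entered the comparisons with GV was not tested. No blood marker passed 0.0347 FPKM. The median log2 change against GV was not 0 (0.19 in TubA-20, 0.14 in TubA-10 and 0.13 in MII over 9193 genes that reached 1 FPKM throughout), and changes from GV are to be read relative to these medians.

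**Figure D1:**
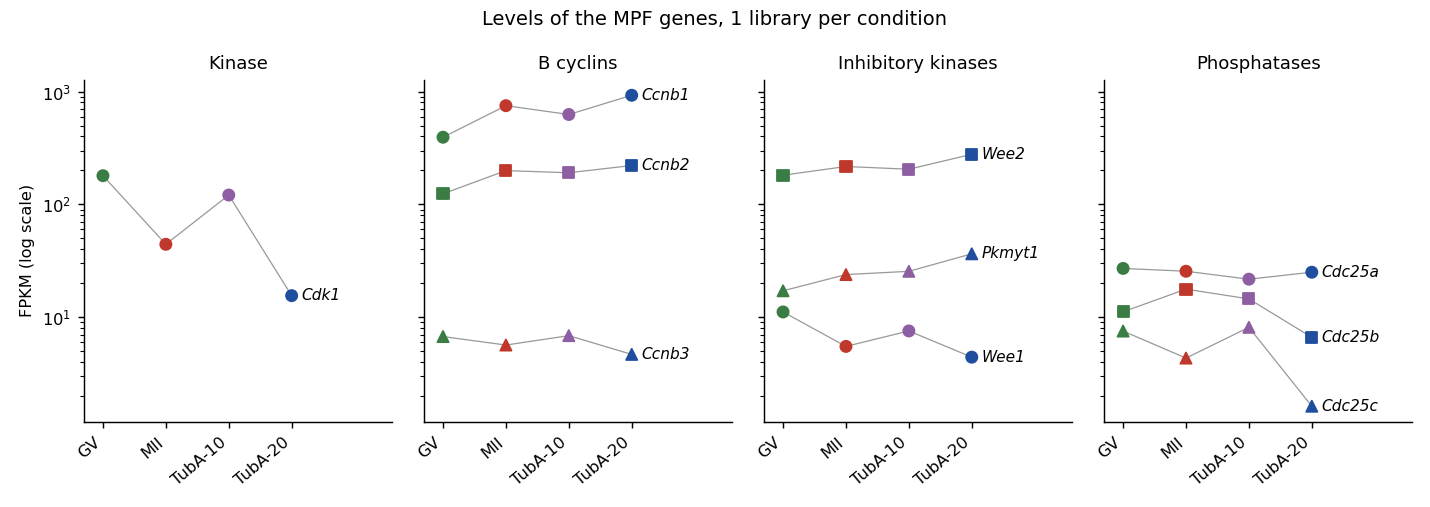
FPKM of the 10 MPF genes (vertical log axis) in the GV, MII, TubA-10 and TubA-20 libraries, in panels for the kinase, the B cyclins, the inhibitory kinases and the phosphatases. Each point is 1 library and grey lines only join the points of a gene. *Cdk1* spans 15.5 to 179 FPKM, while *Ccnb1* and *Wee2* are lowest in GV and highest in TubA-20.

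*Cdk1*, the catalytic subunit, was at 179 FPKM in GV, 121 in TubA-10, 44.2 in MII and 15.5 in TubA-20. Its highest and lowest values differed 11.6-fold, the widest span of the 10 genes. With drug the level lay on either side of the MII value, since TubA-10 lay between GV and MII and TubA-20 below both. Cyclin B1, the main mitotic and meiotic partner of CDK1, ran the other way. *Ccnb1* was at 394 FPKM in GV, 626 in TubA-10, 749 in MII and 927 in TubA-20. The library with the least *Cdk1* thus had the most *Ccnb1*, and the one with the most *Cdk1* the least *Ccnb1*. Neither order was particular to this pair, since *Wee1* had that of *Cdk1* and *Wee2* that of *Ccnb1*. The share of all genes with either order was not counted.

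Cyclin B2, which can stand in for cyclin B1 in the oocyte, had the order of libraries of *Ccnb1* over a smaller range. *Ccnb2* was at 124 FPKM in GV, 191 in TubA-10, 199 in MII and 221 in TubA-20. Cyclin B3, which is needed for the onset of anaphase in the first meiotic division of the female, was a minor transcript. *Ccnb3* was at 6.73 FPKM in GV, 6.86 in TubA-10, 5.66 in MII and 4.67 in TubA-20. Its highest and lowest values differed 1.47-fold.

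Among the inhibitory kinases *Wee2*, expressed mainly in the oocyte, was the major transcript in all 4 libraries. It was at 181 FPKM in GV, 205 in TubA-10, 217 in MII and 278 in TubA-20. *Pkmyt1* was at 17.1 FPKM in GV, 25.5 in TubA-10, 23.8 in MII and 36.4 in TubA-20. Both genes were lowest in GV and highest in TubA-20. *Wee1*, the form used by somatic cells, had the reverse order of *Wee2*, at 11.1 FPKM in GV, 7.55 in TubA-10, 5.50 in MII and 4.42 in TubA-20.

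The phosphatase genes each had a pattern of their own. *Cdc25a* varied least of the 10 genes, with 27.0 FPKM in GV, 21.7 in TubA-10, 25.5 in MII and 25.0 in TubA-20. *Cdc25b*, whose product is needed for meiotic resumption in the mouse, was at 11.2 FPKM in GV, 14.5 in TubA-10, 17.7 in MII and 6.62 in TubA-20, and so was above GV in MII and TubA-10 and below it in TubA-20. *Cdc25c*, on the minus strand of chromosome 18 (34732993 to 34751533) and dispensable for female fertility, was at 7.53 FPKM in GV, 8.12 in TubA-10, 4.34 in MII and 1.62 in TubA-20. The last value is the lowest of any of the genes and rests on an estimated 45 fragments, with a 95% Poisson interval of 32.8 to 60.2 that covers counting error only. *Cdc25c* in GV rests on an estimated 248 fragments, with an interval of 218 to 281.

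Maturation without drug was described by MII against GV. Of the 10 genes 1 was more than 2-fold lower and 0 were more than 2-fold higher, against 8.34% and 3.05% of all genes. These shares were 20.8% and 8.26% among the 7685 genes with at least 5 FPKM in either library. *Cdk1* was the gene past 2-fold, with a log2 change of −2.00, and 350 of the 21957 genes had a larger fall. *Ccnb1* was higher by 0.93 and *Ccnb2* by 0.68. *Ccnb1* passed 2-fold with equal FPKM sums (1.06) or equal *Gapdh* (1.16). *Wee1* was at −0.90 and passed 2-fold with a pseudocount of 0.1 or 0.01 (−1.01 with the latter) and with the median change set to 0 (−1.02). *Pkmyt1* was higher by 0.46, *Cdc25b* by 0.62 and *Wee2* by 0.26. *Cdc25c* was at −0.68 and *Ccnb3* at −0.21. *Cdc25a* was at −0.08, a sign that turned with equal FPKM sums and equal *Gapdh*, to at most 0.14.

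For TubA-10 against GV 0 of the 10 genes passed 2-fold in either direction, against 0.742% of all genes higher and 5.6% lower. Among the 7579 genes with at least 5 FPKM in either library the shares were 1.77% and 14.2%. The values ran from −0.57 for *Cdk1* to 0.67 for *Ccnb1*. *Wee1* was at −0.50 and *Cdc25a* at −0.30, while *Ccnb2* was at 0.62, *Pkmyt1* at 0.55, *Cdc25b* at 0.35 and *Wee2* at 0.18. *Ccnb3* and *Cdc25c* were at 0.02 and 0.10, and both were below 0 once the median change was set to 0.

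In TubA-20 against GV 5 of the 10 genes passed 2-fold, 2 higher and 3 lower, against 7.61% of all genes higher and 11.7% lower. Among the 7778 genes with at least 5 FPKM in either library these shares were 20.2% and 26.8%, and the shares of the MPF genes were close to them. Lower were *Cdk1* (−3.45), *Cdc25c* (−1.70) and *Wee1* (−1.16). Higher were *Ccnb1* (1.23) and *Pkmyt1* (1.05), and *Pkmyt1* was at 0.86, under 2-fold, once the median change was 0. The fall of *Cdk1* was exceeded by that of 112 of the 21957 genes. *Ccnb2* was at 0.83, *Wee2* at 0.61, *Cdc25a* at −0.11, *Ccnb3* at −0.45 and *Cdc25b* at −0.67. The 3 comparisons with GV share the GV library.

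**Figure D2:**
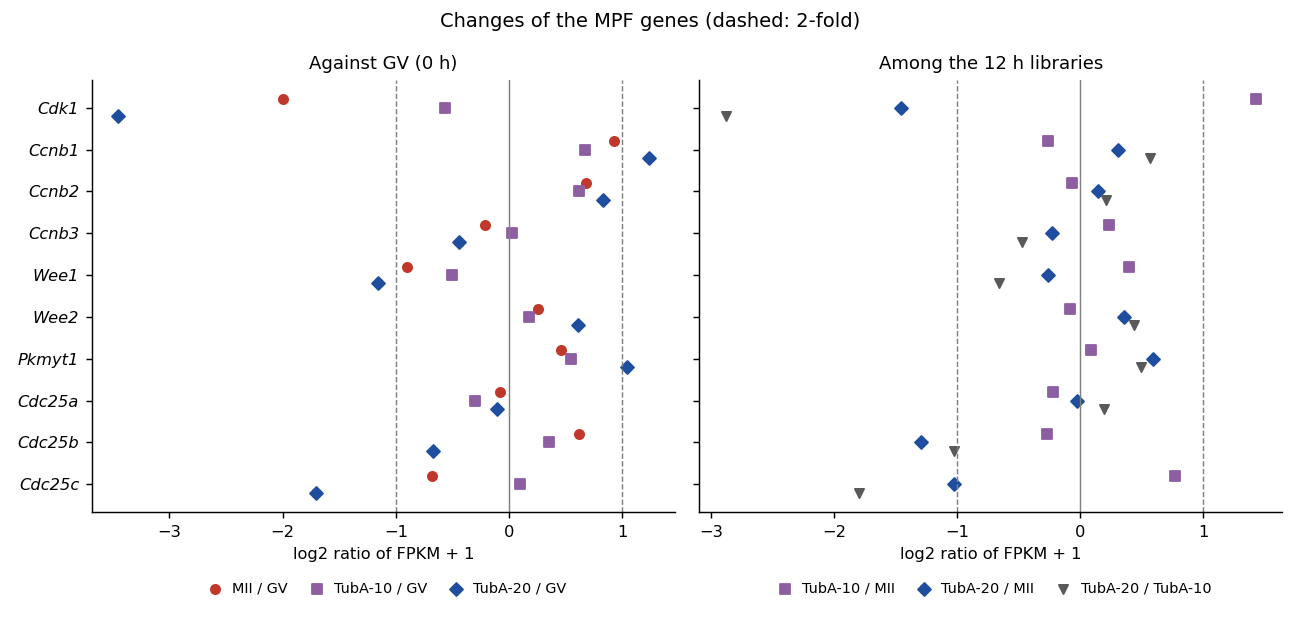
Log2 ratio of FPKM + 1 (horizontal axis) for each MPF gene, against GV on the left and among the 3 libraries cultured for 12 h on the right. Each symbol compares 2 libraries and dashed lines mark 2-fold. *Cdk1* is at −3.45 in TubA-20 and −2.00 in MII against GV, and on opposite sides of MII at the 2 doses (1.43 and −1.45).

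Oocytes cultured for the same 12 h were compared with MII, which had no drug. For TubA-10 against MII 1 of the 10 genes passed 2-fold, higher, against 0.515% of all genes higher and 0.128% lower. Of the 7292 genes with at least 5 FPKM in either library 1.29% were higher and 0.206% lower. The gene past 2-fold was *Cdk1* at 1.43, and 9 of the 21957 genes had a larger rise. *Cdc25c* followed at 0.77 and *Wee1* at 0.39, and both had been lower in MII than in GV. The B cyclins, *Wee2*, *Pkmyt1*, *Cdc25a* and *Cdc25b* lay between −0.27 and 0.24.

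For TubA-20 against MII 3 of the 10 genes passed 2-fold, all lower, against 2.44% of all genes lower and 0.328% higher. Of the 7197 genes with at least 5 FPKM in either library 6.09% were lower and 0.542% higher. *Cdc25c* is not among these genes, and with that minimum 2 MPF genes passed 2-fold, both lower. *Cdk1* was at −1.45, and 109 of the 21957 genes fell further. *Cdc25b* was at −1.30, with 193 genes further down. *Cdc25c* was at −1.02. *Cdc25b* is the only one of the 3 whose level in MII was above that in GV. *Pkmyt1* was higher by 0.59, *Wee2* by 0.36 and *Ccnb1* by 0.31. *Ccnb2* was higher by 0.15, which became −0.01 with equal *Gapdh*. *Wee1* was at −0.26 and *Ccnb3* at −0.23, and *Cdc25a* was at −0.03 with a sign that turned under a scaling. MII entered both comparisons.

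Between the doses *Cdk1* differed most of the 10 genes. In TubA-20 against TubA-10 *Cdk1* was at −2.89, and 5 of the 21957 genes had a larger fall. *Cdc25c* was at −1.80 and *Cdc25b* at −1.03, the latter short of 2-fold with equal upper quartiles (−0.96). These 3 genes were the ones past 2-fold, all lower, against 5.52% of all genes lower and 0.66% higher. Of the 7374 genes with at least 5 FPKM in either library 14.1% were lower and 1.45% higher. *Wee1* was at −0.66 and *Ccnb3* at −0.47, while *Ccnb1* was at 0.57, *Pkmyt1* at 0.50, *Wee2* at 0.44, *Ccnb2* at 0.21 and *Cdc25a* at 0.20.

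Ratios of FPKM inside a library do not depend on how the libraries are scaled. The summed B cyclin FPKM per FPKM of *Cdk1* was 2.92 in GV, 6.81 in TubA-10, 21.6 in MII and 74.3 in TubA-20. Thus B cyclin FPKM exceeded that of *Cdk1* in every library, least in GV and most in TubA-20. RNA was selected with oligo(dT), so differences in tail length between genes can enter these ratios. Reads that the cyclins share with their pseudogenes cannot be separated either. Most of the B cyclin signal was *Ccnb1* throughout, making up 75.1% of their FPKM in GV, 76.0% in TubA-10, 78.5% in MII and 80.4% in TubA-20. *Ccnb3* made up 1.28% in GV and 0.406% in TubA-20. *Wee2* likewise made up 86.1% to 88.1% of the FPKM of the 3 inhibitory kinases. *Pkmyt1* was above *Wee1* in all 4 libraries, at 1.54 times *Wee1* in GV, 3.38 times in TubA-10, 4.33 times in MII and 8.25 times in TubA-20.

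The composition of the phosphatase family differed between the libraries. *Cdc25a* held 59.1% of their FPKM in GV, 48.9% in TubA-10, 53.7% in MII and 75.2% in TubA-20. *Cdc25c* held 16.5% in GV, 18.3% in TubA-10, 9.11% in MII and 4.88% in TubA-20. The FPKM of the 3 inhibitory kinases added up to 4.58 times that of the 3 phosphatases in GV, 5.36 times in TubA-10, 5.17 times in MII and 9.58 times in TubA-20. From GV to TubA-20 the kinase sum went from 209.5 to 319 FPKM and the phosphatase sum from 45.7 to 33.3. These are mRNA levels and say nothing of protein or of kinase activity.

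**Figure D3:**
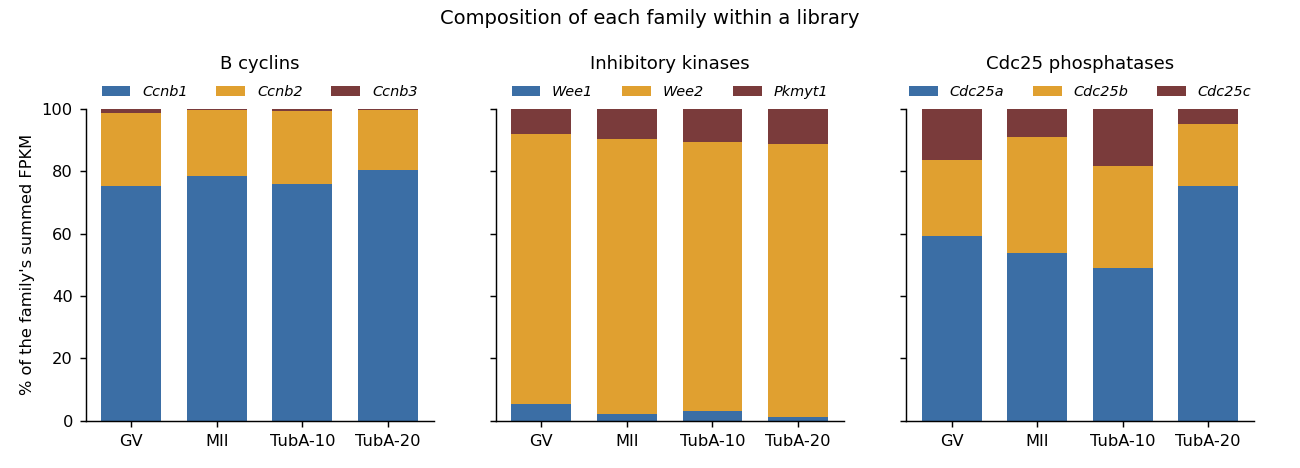
Share of each gene in the summed FPKM of its family (vertical axis, percent) in each library, for the B cyclins, the inhibitory kinases and the Cdc25 phosphatases. Bars add up to 100%. *Ccnb1* and *Wee2* keep the largest part of their families, while *Cdc25a* goes from 59.1% in GV to 75.2% in TubA-20.

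The genes whose profile over the 4 libraries was nearest to that of *Cdk1* were *Plekhh3*, *Cyb5a* (cytochrome b5) and an entry without a symbol (ENSMUSG00000108996). The root mean square differences of their centred log2 values from those of *Cdk1* were 0.11, 0.11 and 0.14, among 6360 genes with at least 10 FPKM in some library. *Cyb5a* went from 477 FPKM in GV to 272 in TubA-10, 97.5 in MII and 39.2 in TubA-20. Nearest to *Ccnb1* were *Ncstn* (nicastrin, a subunit of gamma-secretase), *Fnbp4* and *G3bp2* (a stress granule protein), at differences of 0.0030, 0.0096 and 0.0101. *G3bp2* was at 245 FPKM in GV, 392 in TubA-10, 468 in MII and 588 in TubA-20. With 4 libraries a near match is a description of these libraries only.

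The CPE letters were set beside the changes of all genes with at least 5 FPKM in either library, a comparison chosen after seeing the data. From GV to MII the median log2 change was 0.51 for the 2070 genes with a CPE in the last 200 bases of the 3′ UTR and 0.03 for the 4409 genes without. From GV to TubA-10 the medians were 0.38 and 0.11, and from GV to TubA-20 they were 0.71 and 0.09. In the last comparison 11.4% of the genes with a CPE and 28.0% of those without were lower by more than 2-fold. The part of 3′ UTR length and base composition in this difference was not tested. *Ccnb1*, *Ccnb2* and *Wee2* lay above 0 in all 3 comparisons with GV. *Ccnb3* held a CPE and was lower in MII and TubA-20. *Cdk1* and *Wee1*, with no CPE letters found in the last 200 bases, were below 0 in all 3. Also without these letters there, *Cdc25b* was above 0 in MII and TubA-10, and *Cdc25c* in TubA-10 only. *Cdc25a*, likewise without, was below 0 in all 3, with a lowest value of −0.30. The signs of *Cdc25a* in MII and of *Cdc25c* in TubA-10 turned under a scaling. RNA was selected with oligo(dT), so a change of tail length and a change of transcript number cannot be told apart in these values.

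**Figure D4:**
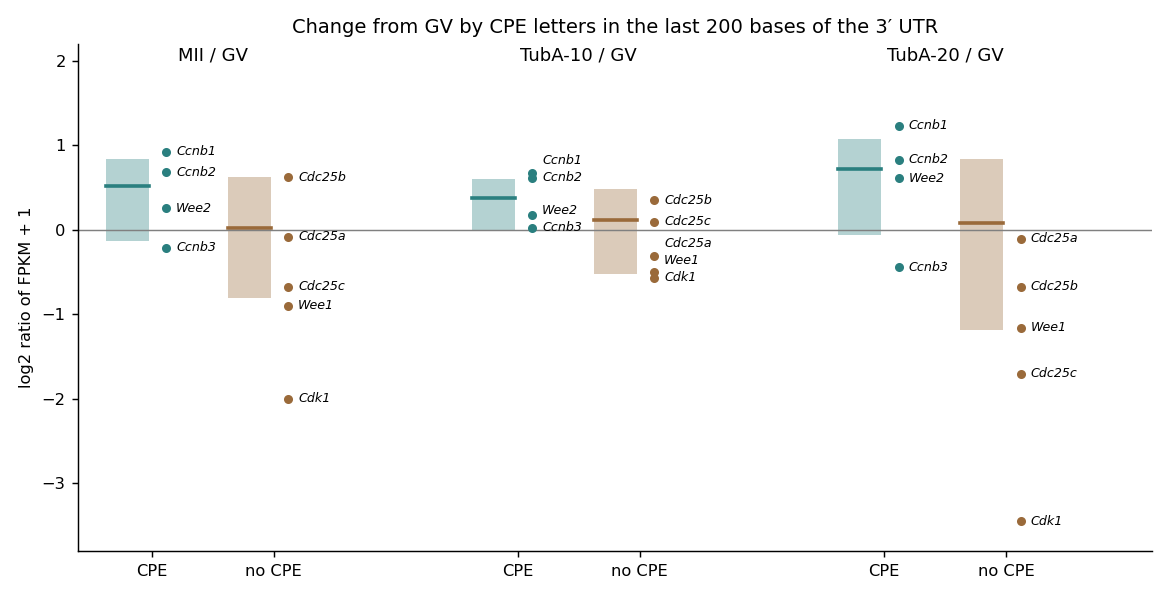
Log2 ratio of FPKM + 1 against GV (vertical axis) for genes with and without CPE letters in the last 200 bases of the 3′ UTR. Bars span the quartiles of all genes with at least 5 FPKM in either library, thick lines are their medians, and points are MPF genes. In TubA-20 the medians are 0.71 and 0.09, and *Cdk1* is at −3.45 among the genes without these letters.

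The wider network around MPF was followed with a list of 42 genes in 5 groups, which was not limited to genes with at least 5 FPKM. From GV to MII 1 of the 42 was more than 2-fold higher and 3 were lower, beside 8.26% and 20.8% of all genes with at least 5 FPKM in either library. With equal *Gapdh* the counts were 4 and 3. From GV to TubA-10 the counts were 0 and 2, beside 1.77% and 14.2%, and 1 and 3 with a pseudocount of 0.01. From GV to TubA-20 they were 7 and 9, beside 20.2% and 26.8%. Their median log2 changes were 0.28, 0.21 and 0.42, beside 0.11, 0.15 and 0.23 for these larger sets. Against MII 0 of the 42 passed 2-fold in TubA-10, beside 1.29% higher and 0.206% lower in the larger set. In TubA-20 against MII 3 were lower and 0 higher, beside 6.09% and 0.542% of the larger set (6 lower with a pseudocount of 0.01). *Cdk2*, among these 3, was under 5 FPKM in TubA-20 and in MII and is not part of that set. Between the doses 4 were lower and 1 higher in TubA-20, beside 14.1% and 1.45% (7 and 1 with that pseudocount). The largest changes among the 8 CDK1 partners and subunits of the CDK-activating kinase were in TubA-20, where 3 were higher than in GV (20.2% of genes with at least 5 FPKM) and 2 lower (26.8%). *Ccna2* (cyclin A2) went from 47.7 FPKM in GV to 66.5 in TubA-10, 95.4 in MII and 150.2 in TubA-20, a change of 1.63 in TubA-20 against GV. *Cdk2*, the related kinase, was at 5.70 FPKM in GV, 5.21 in TubA-10, 2.98 in MII and 0.680 in TubA-20, and had the order of libraries of *Cdk1*. *Ccnh*, the cyclin of the CDK-activating kinase, was at −1.26 in MII against GV.

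Of the 7 genes for kinases that act on WEE1 or CDC25 and their cofactor, 1 was more than 2-fold higher and 1 lower in TubA-20 against GV, beside the same 20.2% and 26.8%. *Chek1*, a checkpoint kinase that inhibits CDC25, went from 159 FPKM in GV to 377 in TubA-20 (1.24). *Chek2*, another checkpoint kinase and named after its value was seen, went from 2.89 to 0.738 FPKM (−1.16). It is therefore outside the set of genes with at least 5 FPKM. The next group joins the Greatwall genes, which protect CDK1 phosphorylation from the phosphatase PP2A, with genes for subunits of PP2A itself. In TubA-20 against GV 4 of its 8 genes were lower by more than 2-fold and 1 was higher. The shares were 26.8% and 20.2% of genes with at least 5 FPKM. Both kinds of gene were among the lower ones, and the higher one encodes a PP2A subunit. Of the lower genes 1, for a PP2A subunit, was under 5 FPKM in TubA-20 and in GV and is outside that set. *Arpp19*, a Greatwall substrate that inhibits PP2A, was at 598 FPKM in GV, 203 in TubA-10, 167 in MII and 81.5 in TubA-20. Its change against GV was −1.56 in TubA-10, −1.84 in MII and −2.86 in TubA-20. With MII as the reference TubA-20 was at −1.02. *Ppp2ca*, the catalytic subunit of PP2A, was at −1.02 in TubA-10, −0.98 in MII and −1.42 in TubA-20 against GV.

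Cyclin B is destroyed through the anaphase-promoting complex (APC/C), and of the 11 genes of that group 1 was more than 2-fold higher and 0 were lower in MII against GV, beside 8.26% and 20.8% of genes with at least 5 FPKM. In TubA-20 against GV 1 was higher and 1 lower, beside 20.2% and 26.8%. *Fbxo43* (EMI2, the APC/C inhibitor that holds the MII arrest) was at 16.9 FPKM in GV, 30.2 in TubA-10, 38.9 in MII and 34.3 in TubA-20, and passed 2-fold in MII against GV (1.15). *Ube2s*, an APC/C-linked ubiquitin-conjugating enzyme, went from 457 FPKM in GV to 1095 in TubA-20 (1.26). *Fzr1*, the APC/C activator CDH1 that keeps cyclin B1 low in the GV oocyte, was at 63.6 FPKM in GV, 70.2 in TubA-10, 50.3 in MII and 23.1 in TubA-20. Its change in TubA-20 was −1.09 against MII and −1.56 against TubA-10. *Btrc*, the F-box protein that marks WEE1 for degradation, was at 35.1 FPKM in GV, 21.7 in TubA-10, 13.8 in MII and 7.71 in TubA-20. *Wee1* had the same order of libraries, as did *Cdk1*, *Cdk2* and *Arpp19*. The share of all genes with this order was not counted, and a link between *Wee1* and *Btrc* was not tested.

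**Figure D5:**
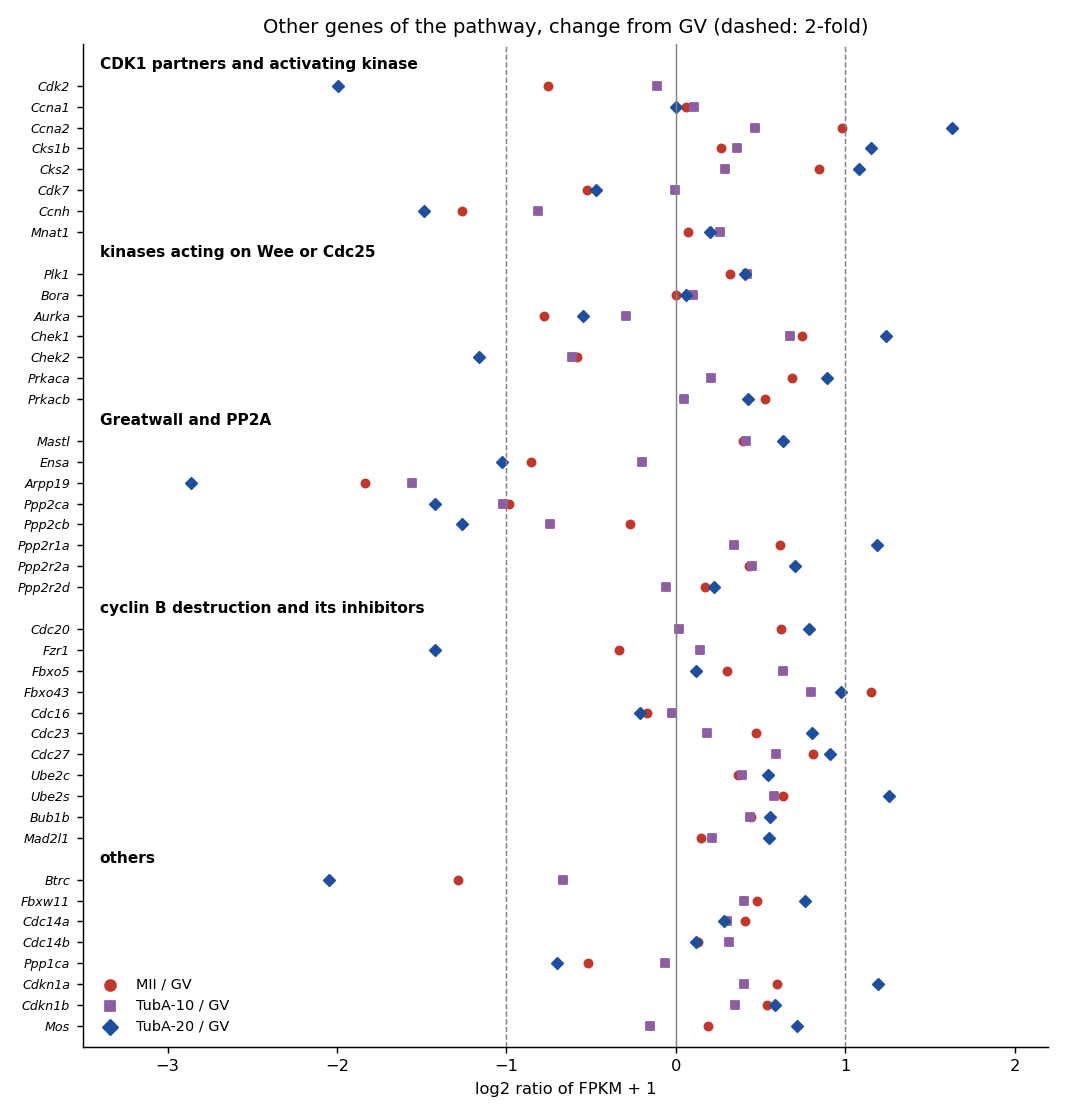
Log2 ratio of FPKM + 1 against GV (horizontal axis) for the 42 other genes of the pathway, in their 5 groups, for MII, TubA-10 and TubA-20. Each symbol compares 2 libraries and dashed lines mark 2-fold. *Arpp19* has the lowest value (−2.86) and *Ccna2* the highest (1.63), both in TubA-20.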

How the data were processed

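Libraries were made with a stranded mRNA kit after oligo(dT) selection, which favours transcripts with longer poly(A) tails. The submitters' processing notes name mm10, STAR 2.5.0, Cufflinks and Cuffdiff 2.2.1. The authors deposited FPKM values, made with a strand-specific Cufflinks setting and thus already divided by transcript length and mapped fragments. Ensembl identifiers were matched without version to GENCODE M21 names (GRCm38), which left 165 of 21959 entries under their identifier, and entries that share a symbol were added up. The methods of the study name a UCSC gene model, and the release behind the identifiers is not given in the sources used here.

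Log2 ratios used FPKM + 1, with 2-fold as the threshold, the fold that the study used for its scatter plots. For pathway analysis the study also set an FDR limit, which was not used here. The shares of genes past 2-fold given above are therefore not the calls of the study. With 1 library per condition no test was made. The value of 1 fragment was estimated as the 2nd percentile of FPKM × length over single-transcript genes of 1 to 5 kb. 3′ UTRs came from the principal coding transcript (best support, then longest). Named genes were all 10 MPF genes, at most 3 higher and 3 lower network genes past 2-fold in a comparison, and the 3 nearest profiles. The genes and lists were chosen with earlier results of these data known. The 2-fold calls and the estimate of 1 fragment were tested on simulated counts, in which transcript lengths were known exactly. The other calculations were not tested in this way. Protein sequences were not used here. Calculations ran in Python 3.11.15 (numpy 2.4.6, pandas 2.3.3, scipy 1.17.1) and plots in matplotlib 3.10.9.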

Additional observations from a re-analysis of the deposited data

How the results depend on the processing

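The 60 log2 changes of the 10 MPF genes in 6 comparisons were recomputed with other pseudocounts (0.1 and 0.01), with genes of at least 1 or 5 FPKM, under 4 scalings of the libraries, and the highest entry of a symbol. The minimum values and the choice of entry cannot move the ratio of a gene with 1 entry. Of the 360 values from the pseudocounts and scalings 353 stayed on their side of 2-fold, and no value past 2-fold changed sign. Signs turned for *Cdc25a* (MII against GV, TubA-20 against MII), *Ccnb3* and *Cdc25c* (TubA-10 against GV) and *Ccnb2* (TubA-20 against MII), all near 0. In MII against GV the number of genes past 2-fold went from 1 to 2 with either pseudocount and with the median change set to 0 (both lower, through *Wee1*), and to 2 with equal FPKM sums and equal *Gapdh* (1 higher and 1 lower, through *Ccnb1*). The numbers for the other 5 comparisons stayed within 1.5 times. The 42 network genes past 2-fold went from 4 to 7 in MII against GV with equal *Gapdh*, and from 2 to 1 in TubA-10 against GV with equal FPKM sums. With a pseudocount of 0.01 they went from 2 to 4 in that comparison, from 0 to 1 in TubA-10 against MII, from 3 to 6 in TubA-20 against MII (5 with 0.1) and from 5 to 8 between the doses. No paired analysis was possible because each condition has 1 library, and for the same reason no library could be left out. Differences near 2-fold or near 0 cannot be read as larger than the spread between pools of oocytes, which was not measured.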

Other observations

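Genes with and without CPE letters were also compared among the libraries of the same culture time, where the direction differed between the doses. In TubA-20 against MII the median log2 change was 0.16 for genes with a CPE and 0.03 for genes without, while in TubA-10 against MII it was −0.13 and 0.04, with the genes that hold a CPE lower. In TubA-20 against TubA-10 the medians were 0.32 and 0.03. With the last 100 bases of the 3′ UTR in place of 200 the medians of TubA-20 against GV were 0.75 and 0.18, and with a minimum of 1 FPKM they were 0.55 and −0.04. Both settings were chosen after seeing the data.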
